A study of Mus musculus with 16 samples.

Results

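Havcr1, Lcn2, Clu, Krt20, Sox9, Sox4, Spp1, Cd44, Vcam1 and Plin2 are genes that kidney tubule cells switch on after injury and during repair, and they were taken by name, with earlier results of these data known. All 10 were found in both tables, of 24722 genes measured in isolated glomeruli and 34264 measured in renal cortex, and all 10 passed the filter on low counts in both tissues. The 4 groups were glomeruli of HFD/STZ diabetic mice, glomeruli of control mice, cortex of HFD/STZ diabetic mice and cortex of control mice, with 4 RNA-seq libraries each. All mice were of wild-type genotype (WT) and 24 weeks old, and all libraries carry the same batch number. HFD/STZ stands for a high-fat diet with streptozotocin, a compound that kills pancreatic beta cells. The labels used here give no diet, strain or sex of the controls, so effects of the diet, of the toxin and of diabetes itself cannot be told apart. They also do not say that the libraries of a group came from separate animals, so the p-values measure the spread between these libraries, which may be technical.

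After ischaemia, toxins or protein overload, surviving tubule cells lose their transport functions, take on a less differentiated state and either repair the epithelium or persist in an inflamed, failed-repair state. Havcr1 encodes KIM-1, a surface receptor by which injured proximal tubule cells take up dying cells, and Lcn2 encodes NGAL, a secreted iron-siderophore carrier. Both proteins are measured in urine as markers of tubular injury. Clu (the extracellular chaperone clusterin) and Spp1 (the secreted phosphoprotein osteopontin) are released by damaged tubules, Cd44 is a receptor for hyaluronan and osteopontin, and Vcam1 is the adhesion molecule of failed-repair proximal tubule cells and of activated endothelium. Krt20 is a keratin of gut and bladder lining that appears in injured tubules, Sox9 and Sox4 are transcription factors of epithelial repair and development, and Plin2 coats lipid droplets. Glomeruli also hold epithelial cells that can make several of these products, the parietal cells of Bowman's capsule among them.

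The libraries held 36339294 to 40696477 counts in diabetic glomeruli and 40001932 to 41876031 in control glomeruli, and 60628981 to 72352656 counts in diabetic cortex and 57473100 to 69947387 in control cortex. The labelled tissues were borne out by podocyte markers, 10 genes whose summed level was 3304 to 5152 CPM in diabetic glomeruli and 6187 to 7305 CPM in control glomeruli, against 330 to 382 CPM in diabetic cortex and 369 to 407 CPM in control cortex. CPM is the count per 1000000 counts of the TMM-scaled library size. Diabetic glomerular libraries 1 and 4 were near-identical by the standard of their group, with a chi-square of 6.69 per gene where other pairs had 66.2 to 97.9. Control glomerular libraries 3 and 4 were close in the same way, at 2.76 where other pairs had 45.7 to 84.4. Counts were therefore added up within both pairs, which left 3 diabetic and 3 control glomerular samples. Values below are given in the order libraries 1 and 4 summed, library 2, library 3 for diabetic glomeruli, library 1, library 2, libraries 3 and 4 summed for control glomeruli, and libraries 1 to 4 for the cortex groups.

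Tubule RNA differed between the glomerular samples. The 18 proximal tubule markers summed to 1450, 156 and 701 CPM in diabetic glomeruli, against 104, 121 and 94.4 CPM in control glomeruli, and 14 of the 18 were called higher, none being at 0 in any sample. The 12 thick limb and distal nephron markers summed to 2701, 477 and 1437 CPM in diabetic glomeruli, against 382, 495 and 553 CPM in control glomeruli. Diabetic sample 2 was close to the controls for these segments, and the other diabetic samples were well above them. The 12 collecting duct markers summed to 126, 25.5 and 84.3 CPM in diabetic glomeruli, against 7.6, 8.04 and 6.63 CPM in control glomeruli, with 6 of 10 tested called higher, and here diabetic sample 2 was above the controls too. The 6 parietal cell markers summed to 1169, 1333 and 1087 CPM in diabetic glomeruli, against 917, 1084 and 759 CPM in control glomeruli. The sum moved less than most of its genes, with 4 of 6 called higher and 1 lower (median log2 fold change 1.5). Mesangial and smooth muscle markers (10 genes) summed to 3517 to 6252 CPM in diabetic glomeruli and 17618 to 20134 CPM in control glomeruli, with 5 called lower. In bulk tissue a larger number of cells of a type and more RNA per cell cannot be told apart. The part of tubule and parietal RNA in the glomerular results was not tested, but each member's effect is also given below with diabetic sample 2 as the sole diabetic sample, assumed to vary like the controls.

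The upstream sequences of the members with the largest glomerular fold changes among those with an entry are shown first, since these members lay higher in every diabetic than in every control sample of both tissues. RefSeq windows on GRCm38.p6 were found for 7 of the 10 members, Clu, Sox9 and Vcam1 having none in the table used, and the 250 bases before the start nearest to an annotated transcript are printed on the gene's strand. Krt20 lies at chr11:99438154-99438403 (minus strand), Lcn2 at chr2:32387740-32387989 (minus strand), Havcr1 at chr11:46739973-46740222 (plus strand) and Spp1 at chr5:104434861-104435110 (plus strand). Capitals mark matches to the motifs searched.
Krt20: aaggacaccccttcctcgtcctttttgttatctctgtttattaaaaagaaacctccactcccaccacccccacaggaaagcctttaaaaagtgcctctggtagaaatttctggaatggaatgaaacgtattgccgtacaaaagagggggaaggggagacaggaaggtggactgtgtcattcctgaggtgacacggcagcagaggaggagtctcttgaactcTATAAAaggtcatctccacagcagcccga
Lcn2: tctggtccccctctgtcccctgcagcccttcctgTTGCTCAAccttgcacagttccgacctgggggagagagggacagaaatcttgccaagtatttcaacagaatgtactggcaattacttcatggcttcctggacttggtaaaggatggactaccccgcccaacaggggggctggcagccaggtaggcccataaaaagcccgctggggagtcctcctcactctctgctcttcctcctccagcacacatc
Havcr1: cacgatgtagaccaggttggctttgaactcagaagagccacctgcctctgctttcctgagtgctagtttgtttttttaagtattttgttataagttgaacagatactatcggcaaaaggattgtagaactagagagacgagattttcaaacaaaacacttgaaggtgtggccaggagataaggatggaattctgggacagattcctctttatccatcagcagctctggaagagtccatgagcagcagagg
Spp1: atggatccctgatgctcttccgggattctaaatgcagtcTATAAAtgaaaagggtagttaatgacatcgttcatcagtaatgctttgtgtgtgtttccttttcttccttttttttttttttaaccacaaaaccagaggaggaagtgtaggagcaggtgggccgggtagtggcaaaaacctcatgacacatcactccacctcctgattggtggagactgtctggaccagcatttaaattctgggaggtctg
Both strands were searched for TGANTCA (AP-1), GGG and TTCC with any 3 bases between them (NF-kB), TTCNNNGAA (STAT), TTGCNNAA (C/EBP) and TATAAA (the TATA box). Krt20 held TATAAA 29 bases before its start and Spp1 held it 211 bases before, a match found in 12.4% of all 32851 windows. Lcn2 held a C/EBP match 216 bases before its start, as did 9.56% of windows anywhere along their length. Havcr1 held none of the 5 motifs. No AP-1, NF-kB or STAT match was found in the 7 windows, against 6.75%, 4.65% and 7.02% of all windows, and this says only that those letters are not in these 250 bases.

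Havcr1 and Lcn2, the urinary injury markers, were low in most control samples and higher in every diabetic sample of both tissues. Havcr1 had 105, 124 and 173 CPM in diabetic glomeruli, against 0.403, 28.9 and 0.712 CPM in control glomeruli. The groups did not overlap, but control sample 2 stood far above the other controls. This gave a log2 fold change of 3.77 ± 1.43 (SE), which missed the threshold (edgeR quasi-likelihood test, Benjamini-Hochberg adjusted p = 0.0794). Without control sample 2 it was 7.81 with an adjusted p of 0.000259, the only 1 of 6 fits with a sample left out that passed (largest adjusted p = 0.145). With all samples kept, DESeq2 gave 3.75 (Wald test, adjusted p = 0.0394) and limma on log2(FPKM + 1) gave 4.45 (adjusted p = 0.00933). Of 16 alternative fits, 6 called Havcr1 in glomeruli. In the cortex Havcr1 had 16.2, 54.8, 60.8 and 30 CPM in diabetic libraries, against 0.994, 1.2, 1.33 and 3.08 CPM in control libraries. It rose by a log2 fold change of 4.59 ± 0.57 (edgeR adjusted p = 0.00207) and was called whichever library was left out. The gene, ENSMUSG00000040405, lies at chr11:46735080-46779578 on the plus strand (GRCm38).

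Lcn2 (ENSMUSG00000026822, chr2:32384633-32388252, minus strand) had 414, 481 and 220 CPM in diabetic glomeruli, against 0.0806, 35.6 and 0.394 CPM in control glomeruli. The 0.0806 CPM of control sample 1 stands for 3 counts, and control sample 2 again lay far above its group. Lcn2 had a glomerular log2 fold change of 4.97 ± 1.76 (edgeR adjusted p = 0.065), and without control sample 2 it was 10.35 (adjusted p = 0.000471). No other fit with 1 sample left out passed (largest adjusted p = 0.127). With all samples kept, DESeq2 gave 4.96 (Wald test, adjusted p = 0.0217) and limma on log2(FPKM + 1) gave 6.79 (adjusted p = 0.0095). Lcn2 too was called in 6 of 16 alternative fits. In the cortex Lcn2 had 7.01, 18.9, 17.5 and 6.3 CPM in diabetic libraries, against 0.634, 0.426, 0.644 and 3.05 CPM in control libraries. It rose there by 3.36 ± 0.73 on the log2 scale (edgeR adjusted p = 0.0163), with groups that did not overlap. Per length, Lcn2 reached 467 ± 177 FPKM in diabetic glomeruli and 4.48 ± 2.52 FPKM in diabetic cortex (SD, n = 3 and 4). In CPM these means were 372 and 12.4, a smaller gap, since FPKM per CPM of this gene differed between the separately made tables. With diabetic glomerular sample 2 alone, neither Havcr1 (log2 fold change 3.67, adjusted p = 0.277) nor Lcn2 (5.36, adjusted p = 0.197) passed.

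**Figure D1:**
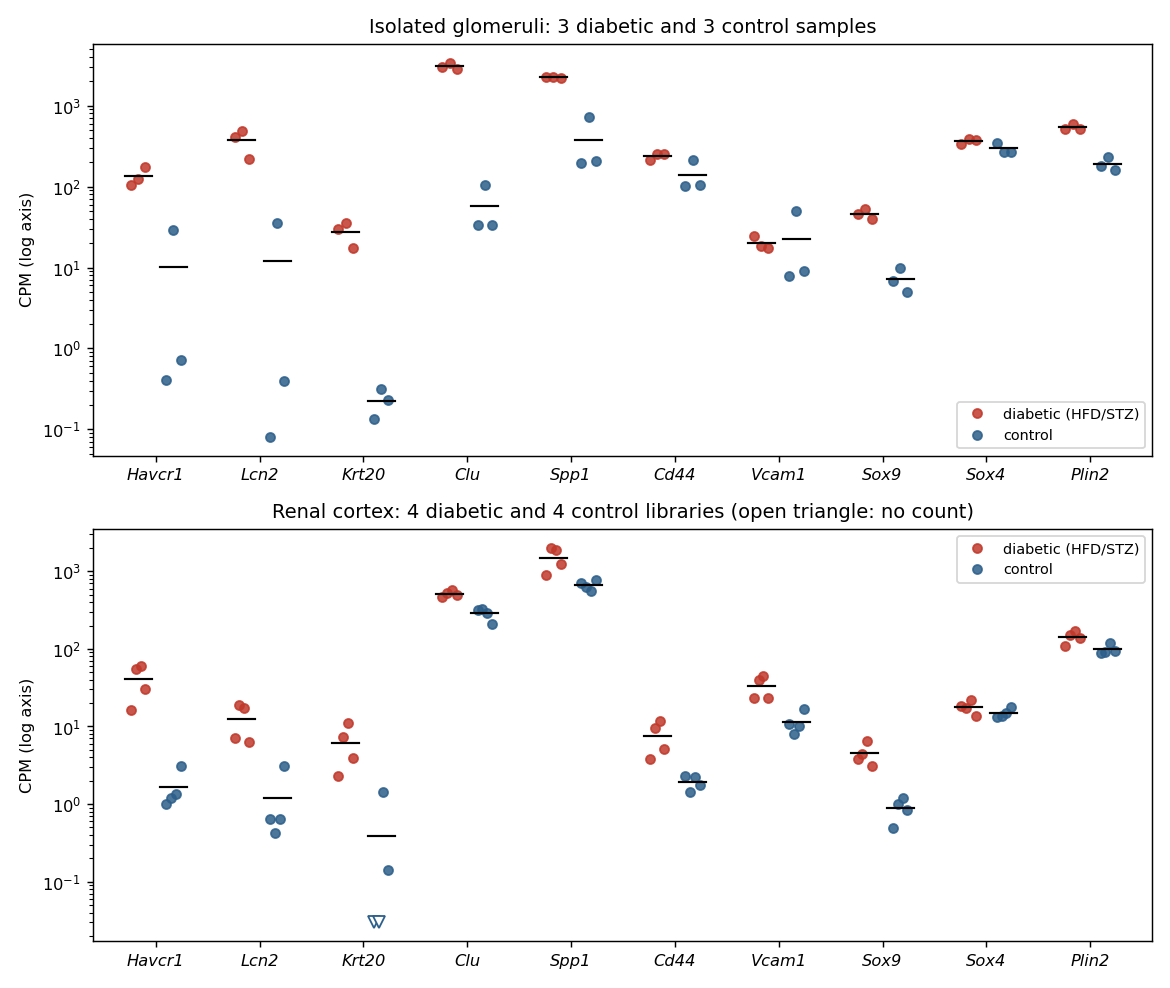
CPM of the 10 genes (log axis) in each glomerular sample (top, 3 diabetic and 3 control) and each cortex library (bottom, 4 and 4), with a bar at each group's mean and open triangles for Krt20 libraries with no count. Control glomerular sample 2, the middle blue point of each group in the top panel, lies far above its fellow controls for Havcr1 (28.9 CPM) and Lcn2 (35.6 CPM).

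Clu showed the widest gap between the tissues with all samples kept, and Lcn2 did without control glomerular sample 2 (difference 6.99, adjusted p = 0.00146, and 5.66 for Clu). It had 3019, 3391 and 2856 CPM in diabetic glomeruli, against 33.3, 106 and 33.9 CPM in control glomeruli, so that the lowest diabetic sample was 26.9 times the highest control. In diabetic glomeruli the mean was 53.4 times the control mean, and the log2 fold change was 5.74 ± 0.56 (edgeR adjusted p = 0.000957). With diabetic sample 2 alone it was 5.90 (adjusted p = 0.0159). In the cortex Clu had 473, 525, 567 and 495 CPM in diabetic libraries, against 320, 326, 292 and 211 CPM in control libraries. The cortex groups did not overlap either, with a log2 fold change of 0.84 ± 0.13 (edgeR adjusted p = 0.0023). The difference of the diabetic effect, glomeruli minus cortex, was 4.91 ± 0.48 on the log2 scale (interaction in edgeR, adjusted p = 1.04e-05), and Clu was called in each of the 23 alternative fits of that difference. Clu is ENSMUSG00000022037, at chr14:65968483-65981547 on the plus strand.

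Spp1, osteopontin, rose in both tissues and was the member with the most even diabetic glomerular values. It had 2227, 2279 and 2218 CPM in diabetic glomeruli, a spread of 1.03 times, against 193, 723 and 207 CPM in control glomeruli. It rose by 2.58 ± 0.54 on the log2 scale (edgeR adjusted p = 0.0112), and it was 2.63 with diabetic sample 2 alone, where it no longer passed (adjusted p = 0.0935). In the cortex Spp1 had 894, 2002, 1893 and 1229 CPM in diabetic libraries, against 699, 634, 559 and 780 CPM in control libraries. It rose there by 1.17 ± 0.24 (edgeR adjusted p = 0.0112), the lowest diabetic library lying 1.15 times above the highest control. The difference between tissues was 1.43 ± 0.57 (adjusted p = 0.0687) and 2.30 (adjusted p = 0.00047) without control glomerular sample 2. Spp1 (ENSMUSG00000029304) lies at chr5:104435118-104441050 on the plus strand.

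Cd44 (ENSMUSG00000005087, chr2:102811141-102901665, minus strand), the receptor for osteopontin and hyaluronan, passed the test in the cortex and not in glomeruli. In glomeruli it had 211, 251 and 253 CPM in diabetic samples, against 101, 214 and 105 CPM in control samples. The groups overlapped, since control sample 2 lay just above the lowest diabetic sample. The log2 fold change was 0.77 ± 0.30 (edgeR adjusted p = 0.0846), or 1.2 (adjusted p = 0.00165) without control sample 2, and 0.86 (adjusted p = 0.279) with diabetic sample 2 alone. Scaled by library totals it was 0.95 and just passed (adjusted p = 0.0474). It also passed by DESeq2 (0.77, Wald test, adjusted p = 0.0239) and by limma on log2(FPKM + 1) (1.0, adjusted p = 0.031). Of 16 alternative glomerular fits, 7 called Cd44. In the cortex Cd44 had 3.84, 9.42, 11.7 and 5.12 CPM in diabetic libraries, against 2.31, 1.41, 2.22 and 1.75 CPM in control libraries. The increase there was 1.97 ± 0.35 (edgeR adjusted p = 0.00471). The difference between tissues was -1.19 ± 0.51 (adjusted p = 0.0912), which does not show that the tissues differed, nor that they were alike. Without diabetic cortex library 1 it was -1.41 (adjusted p = 0.0308).

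The partners of these proteins were read from a list of 22 ligands, receptors and shedding enzymes. In glomeruli 6 of 21 tested genes rose and 4 fell, with a median log2 fold change of 0.54 (all genes, 0.01). This share is not far from the 37.5% of all glomerular genes called in either direction. Has2, which makes the Cd44 ligand hyaluronan, rose by 4.21 ± 0.65 (edgeR adjusted p = 0.00384), with 15.6, 18.5 and 40.3 CPM in diabetic samples and 0.376, 2.12 and 1.48 CPM in control samples. Cd74, the receptor for macrophage migration inhibitory factor that pairs with Cd44, rose by 3.63 ± 0.55 (adjusted p = 0.00353). It had 77.9, 28.4 and 107 CPM in diabetic samples, against 4.62, 8.49 and 4.17 CPM in control samples. Among diabetic samples it was lowest in sample 2, as were the proximal tubule and myeloid marker sums, whose part was not tested. Lrp2, the endocytic receptor megalin that takes up Lcn2 and Clu proteins, rose by 3.64 ± 0.58 (adjusted p = 0.00437). Lrp2 is itself a proximal tubule marker and had the order of that list's sum among diabetic samples, at 121, 23.5 and 73.6 CPM. Control samples had 5.53, 6.9 and 5.15 CPM, so Lrp2 in diabetic sample 2 still lay above every control. Itga9, an integrin subunit that binds osteopontin and Vcam1, fell by 0.91 (SE 0.14, adjusted p = 0.00367).

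In the cortex 7 of 19 tested genes of that list rose and 3 fell, with a median of 0.26, against 20.1% of all genes called. Cd74 rose by 1.51 ± 0.20 to 448 ± 90 CPM in diabetic cortex, against 157 ± 41 CPM in control cortex (SD, n = 4 each; edgeR adjusted p = 0.0016). Itgb5, an integrin subunit that binds osteopontin, rose by 0.38 ± 0.06 (adjusted p = 0.0025). Slc22a17, a receptor for the Lcn2 protein, fell by 0.26 (SE 0.06, adjusted p = 0.0128), and Adam10, a protease that sheds Cd44, fell by 0.24 (SE 0.05, adjusted p = 0.00862). The diabetic effect differed between tissues for 12 of 21 genes, 6 in each direction, against 35% of all genes. Lrp2 (4.08 ± 0.54, adjusted p = 0.000128) and Timd2, a relative of Havcr1 (3.60 ± 0.77, adjusted p = 0.00349), were shifted toward glomeruli. Timd2 was low there, with 4.15, 1.89 and 2.67 CPM in diabetic samples, against 0.0806, 0.82 and 0.0381 CPM in control samples. The values 0.0806 and 0.0381 stand for 3 counts, and cortex means were 55 CPM (diabetic) and 58.4 CPM (control). Itgb5 (-1.21 ± 0.17, adjusted p = 0.000138) and Itga9 (-1.08 ± 0.20, adjusted p = 0.0011) were shifted toward the cortex.

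Vcam1 (ENSMUSG00000027962, chr3:116109949-116129688, minus strand) rose in the cortex and not detectably in glomeruli. In the cortex it had 23, 39.8, 45.2 and 23.6 CPM in diabetic libraries, against 10.7, 8.09, 10.1 and 16.6 CPM in control libraries. The log2 fold change was 1.53 ± 0.30 (edgeR adjusted p = 0.00993). In glomeruli it had 24.7, 18.6 and 17.2 CPM in diabetic samples, against 7.9, 49.7 and 9.04 CPM in control samples. Control sample 2 was the highest of all 6, and the other controls were the lowest. The log2 fold change was -0.13 ± 0.70 (edgeR adjusted p = 0.9), 0.05 when scaled by library totals (adjusted p = 0.961), and turned to 1.24 (adjusted p = 0.00672) without that sample. With diabetic sample 2 alone it was -0.23 (adjusted p = 0.918). The difference between tissues was -1.63 ± 0.76 (adjusted p = 0.118).

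Vcam1 is a target of NF-kB, the transcription factor of inflammatory signalling, and 22 other NF-kB response genes were read beside it. In the cortex 16 of 19 tested genes rose, against 10.8% of all genes, with a median log2 fold change of 1.39 (all genes, -0.0), and the other 3 (Il1b, Tnf and Tnfaip2) did not pass. Cxcl10, an interferon-induced chemokine, rose by 3.23 ± 0.15 to 31 ± 5.92 CPM in diabetic cortex, against 3.30 ± 0.389 CPM in control cortex (SD, n = 4 each; edgeR adjusted p = 5.99e-06). Ccl2, the monocyte chemokine, rose by 3.98 ± 0.32 (adjusted p = 0.000114), and Nfkb2, an NF-kB subunit, by 1.01 ± 0.09 (adjusted p = 0.000222). Icam1, the adhesion molecule most like Vcam1 in pattern, rose by 1.62 ± 0.15 (adjusted p = 0.000354). Summed macrophage and myeloid markers moved with these genes, at 214 to 309 CPM in diabetic cortex and 101 to 178 CPM in control cortex, with 10 of 12 called higher, and their part in the cortex result was not tested.

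In glomeruli 2 of the 22 NF-kB response genes rose and 3 fell, against 37.5% of all genes called, with a median of -0.49. Lif, a cytokine of the interleukin-6 family, rose by 2.79 ± 0.52 (edgeR adjusted p = 0.00742). Nfkbie, an inhibitor of NF-kB, fell by 0.99 (SE 0.11, adjusted p = 0.00132), the membrane-bound chemokine Cx3cl1 by 1.83 (SE 0.26, adjusted p = 0.00306) and the macrophage growth factor Csf1 by 1.08 (SE 0.28, adjusted p = 0.0255). Control sample 2 was more than 3 times the next control for 11 of the 22, among them Ccl2 with 408 CPM, against 16.4 and 18.9 CPM in the other controls. The same held for 2% of all genes tested. Without control sample 2, 7 of the 22 rose and 3 fell, against 2573 higher and 2432 lower of all 15733 genes tested. The diabetic effect was lower in glomeruli than in cortex for 12 of the 22 genes (median difference -1.75). The same held for 16.2% of all 16506 genes (median 0.04). Without control sample 2 the effect was lower for 11 and higher for 1, against 2678 lower and 2850 higher of 16804 genes. Nfkbie (-1.68 ± 0.15, adjusted p = 4.21e-06), Cx3cl1 (-2.31 ± 0.27, adjusted p = 4.70e-05), Relb, an NF-kB subunit (-1.82 ± 0.24, adjusted p = 0.000101), and Tnfaip3, a feedback inhibitor (-2.02 ± 0.29, adjusted p = 0.000214), had the smallest adjusted p.

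**Figure D2:**
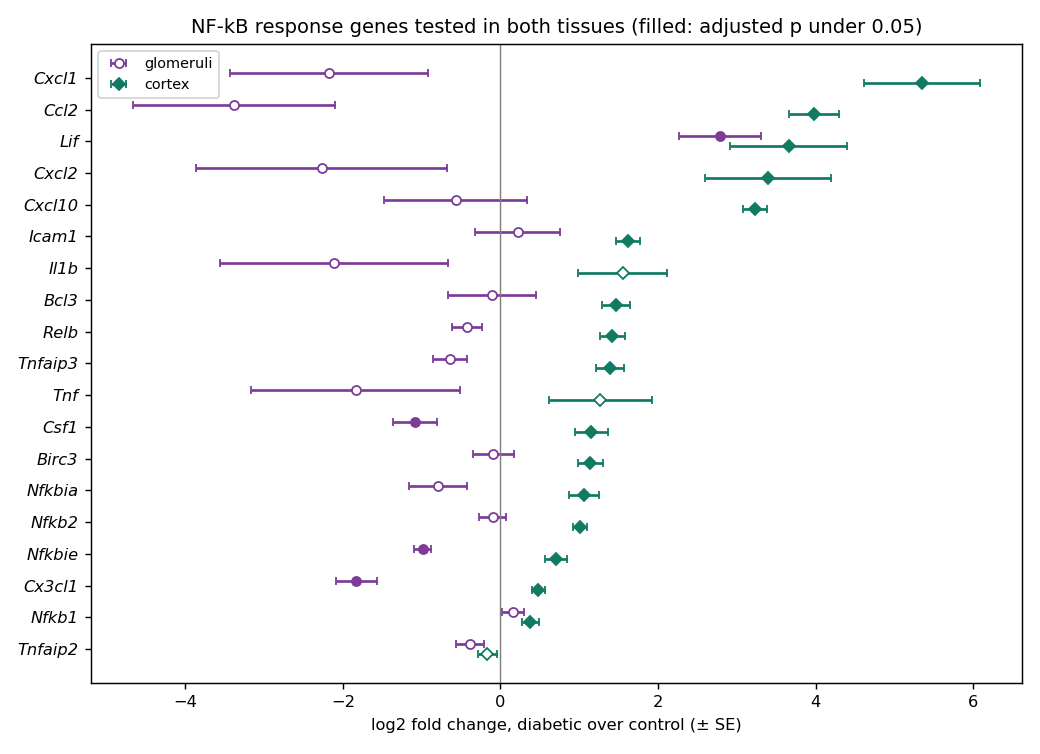
Log2 fold change, diabetic over control (± SE), of the 19 NF-kB response genes tested in both tissues, in glomeruli (circles) and cortex (diamonds), filled where the adjusted p was under 0.05. In the cortex 16 points are filled, all right of 0, while most glomerular points are open.

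Krt20 (ENSMUSG00000035775, chr11:99428403-99438150, minus strand) had the largest log2 fold change of the 10 members in glomeruli with all samples kept. Without control sample 2 it was 7.13, below Lcn2 (10.35) and Havcr1 (7.81). With log2(FPKM + 1) it was 3.8, below Lcn2 (6.79), Clu (6.07) and Havcr1 (4.45). It had 30, 35.6 and 17.2 CPM in diabetic glomeruli, against 0.134, 0.317 and 0.229 CPM in control glomeruli, which stood for 5, 12 and 18 counts. The lowest diabetic sample was 54 times the highest control, and control sample 2 did not stand apart for this gene. Krt20 rose by 6.91 ± 0.41 on the log2 scale (edgeR adjusted p = 0.000347), and 7.29 (adjusted p = 0.00474) with diabetic sample 2 alone. In the cortex Krt20 had 2.27, 7.34, 11 and 3.97 CPM in diabetic libraries, against 0, 0, 1.41 and 0.141 CPM in control libraries, where 3 counts correspond to 0.0514 and 0.0555 CPM in the libraries without a count. The groups did not overlap, yet control library 3 alone held 96 counts and widened the control spread. The log2 fold change was 3.94 ± 1.24 (edgeR adjusted p = 0.0632), and 6.81 (adjusted p = 0.00723) without control library 3. The difference between tissues was 2.98 ± 1.48 (adjusted p = 0.141).

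Keratins of simple epithelia moved with Krt20 in glomeruli. Krt8 had 1056, 1264 and 600 CPM in diabetic glomeruli, against 2.26, 19.1 and 2.48 CPM in control glomeruli, and rose by 6.96 ± 1.04 (edgeR adjusted p = 0.00346). Its usual partner Krt18 had 514, 615 and 326 CPM in diabetic samples, against 0.994, 12.9 and 1.88 CPM in control samples. Krt7 rose by 5.35 ± 0.38 (adjusted p = 0.000519) and Krt19 by 5.07 ± 0.51 (adjusted p = 0.00105). As with Krt20, diabetic sample 2 was the highest and sample 3 the lowest of the diabetic group for all 4 of these keratins. The parietal cell marker sum had the same order, though its lowest diabetic sample (1087 CPM) hardly exceeded its highest control (1084 CPM). The proximal, distal and collecting duct marker sums were lowest in sample 2. An order over 3 samples does not show which cells held these keratins, and the part of parietal or tubule RNA was not tested. In the cortex Krt8 rose by 0.47 ± 0.06 (adjusted p = 0.00112), and Krt7, Krt18 and Krt19 did not pass. The difference between tissues was 6.51 ± 0.85 for Krt8 (adjusted p = 0.000125), 6.11 ± 0.90 for Krt18 (0.000305), 5.71 ± 0.98 for Krt19 (0.000832) and 5.29 ± 0.31 for Krt7 (2.39e-07).

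These keratins belong to a list of 23 relatives of the members, of which 15 were tested in each tissue. In glomeruli 6 rose and 3 fell, with a median of 0.83, against 37.5% of all genes called. In the cortex 4 rose and 11 did not pass, with a median of 0.32, against 20.1% of all genes called. Besides Icam1 and Krt8, the cortex calls were Havcr2, a relative of Havcr1 on myeloid and T cells, which rose by 1.80 ± 0.41 (edgeR adjusted p = 0.0129), and Sox11.

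Sox9 and Sox4, both transcription factors of the SRY-box family, behaved differently from each other. Sox9 (ENSMUSG00000000567, chr11:112782224-112787760, plus strand) had 45.8, 52.5 and 40.2 CPM in diabetic glomeruli, against 6.74, 9.95 and 4.92 CPM in control glomeruli. It rose by 2.69 ± 0.27 (edgeR adjusted p = 0.000989), and by 2.90 (adjusted p = 0.0163) with diabetic sample 2 alone. In the cortex it had 3.85, 4.46, 6.53 and 3.11 CPM in diabetic libraries, against 0.497, 0.999, 1.19 and 0.834 CPM in control libraries, an increase of 2.35 ± 0.31 (adjusted p = 0.0012). The groups did not overlap in either tissue. The difference between tissues was 0.35 ± 0.42 (adjusted p = 0.553), and Sox9 was called in each tissue whichever sample was left out.

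Sox4 (ENSMUSG00000076431, chr13:28948919-28953713, minus strand) had 331, 390 and 375 CPM in diabetic glomeruli, against 348, 270 and 268 CPM in control glomeruli. In the cortex it had 18.1, 17.4, 21.8 and 13.5 CPM in diabetic libraries, against 13.2, 13.8, 14.9 and 17.6 CPM in control libraries. The groups overlapped in both tissues, and neither the glomerular change of 0.31 ± 0.13 (edgeR adjusted p = 0.113) nor the cortex change of 0.25 ± 0.14 (adjusted p = 0.262) passed. Without control glomerular sample 1 the glomerular change was 0.43 (adjusted p = 0.0359), and scaled by library totals it was 0.50 (adjusted p = 0.0186). With diabetic sample 2 alone it was 0.43 (adjusted p = 0.178). The related Sox11, a factor of the developing kidney, rose by 1.46 ± 0.18 in glomeruli (adjusted p = 0.00181), to 75.8 ± 11.2 CPM in diabetic samples, against 27.6 ± 5.43 CPM in control samples (SD, n = 3 each). In the cortex Sox11 rose by 1.60 ± 0.49 (adjusted p = 0.0414), at a level of 0.769 ± 0.304 CPM in diabetic libraries and 0.252 ± 0.132 CPM in control libraries (SD, n = 4 each).

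Plin2 (ENSMUSG00000028494, chr4:86648386-86670060, minus strand), which coats lipid droplets in tubule cells and macrophages, had 508, 593 and 514 CPM in diabetic glomeruli, against 181, 230 and 160 CPM in control glomeruli. Every diabetic sample was at least 2.21 times every control. It rose by 1.5 ± 0.15 (edgeR adjusted p = 0.00104), and by 1.67 (adjusted p = 0.0168) with diabetic sample 2 alone. In the cortex Plin2 had 108, 152, 171 and 140 CPM in diabetic libraries, against 89.6, 92.3, 120 and 92.7 CPM in control libraries. Control library 3 overlapped the diabetic group. The increase of 0.53 ± 0.14 passed (adjusted p = 0.0266), but not after leaving out control library 1, 2 or 4 or diabetic library 2, 3 or 4 (0.44 to 0.54, adjusted p = 0.0614 to 0.0716). The diabetic effect was larger in glomeruli by 0.97 ± 0.22 (adjusted p = 0.00396), in all 23 alternative fits as well.

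Of the other lipid droplet genes, 2 of 16 tested in glomeruli rose and 2 fell (median 0.05), against 37.5% of all genes called in either direction. In the cortex 1 of 20 rose and 1 fell (median -0.03), against 20.1% of all genes. G0s2, an inhibitor of triglyceride lipase, rose in both tissues. In glomeruli it rose by 4.32 ± 0.42 (edgeR adjusted p = 0.000861) at a level of 4.14, 2.47 and 2.62 CPM in diabetic samples, against 0.161, 0.212 and 0.102 CPM in control samples. In the cortex it rose by 0.75 ± 0.15 (adjusted p = 0.00888). Mgll, the lipase of monoglycerides, fell by 1.11 in glomeruli (SE 0.13, adjusted p = 0.00171), Bscl2 (seipin), which shapes droplets, fell by 0.37 (SE 0.11, adjusted p = 0.0393), and Gpam, an enzyme of triglyceride synthesis, fell by 0.40 in the cortex (SE 0.10, adjusted p = 0.0245). Cideb, a droplet protein of liver, rose in glomeruli by 2.98 ± 0.95 (adjusted p = 0.0473), with 7.66, 0.457 and 2.72 CPM in diabetic samples, against 0.322, 0.661 and 0.407 CPM in control samples. Its diabetic sample 2 lay among the controls, whereas the proximal tubule marker sum of that sample (156 CPM) was above its controls (94.4 to 121 CPM). Among diabetic samples the order was the same as for that sum. Cideb means in the cortex were 144 CPM (diabetic) and 180 CPM (control).

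In all, 5 of the 10 members were called higher in glomeruli (Clu, Krt20, Sox9, Spp1 and Plin2), against 19.4% of all 15238 genes tested (37.5% in either direction). For 7 of them every diabetic sample was above every control, against 26.6% of all genes. The members' median log2 fold change was 2.64, and that of all genes was 0.01. Without control sample 2, 9 members were called higher, against 16.4% of all genes, Sox4 being the exception. With all 8 glomerular libraries kept separate 9 were called, against 26% of all genes. In the cortex 8 were called higher, all but Krt20 and Sox4, against 10.8% of all 19228 genes tested (20.1% in either direction), and 8 did not overlap, against 13.5%. The cortex median was 1.75 (all genes, -0.0). No member was called lower in either tissue by edgeR or DESeq2, nor at an unadjusted p under 0.05 in edgeR, while 18.2% of all genes in glomeruli and 9.29% in cortex were called lower. Higher genes made up 51.6% of all glomerular calls, and 72.5% when scaled by library totals, which moved the median of all genes to 0.20. For the difference between tissues 2 members, Clu and Plin2, were called higher in glomeruli, against 18.8% of 16506 genes (35% in either direction), with a median of 0.66 (all genes, 0.04). Of all calls of a difference 53.7% were higher, and 68.9% with library totals. No member was called lower by edgeR, where 1 (Cd44) had an unadjusted p under 0.05, and DESeq2 called 2 lower (Cd44, adjusted p = 0.0443, and Vcam1, adjusted p = 0.05). These shares are given as a description, since the members were picked with earlier results of these data known.

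**Figure D3:**
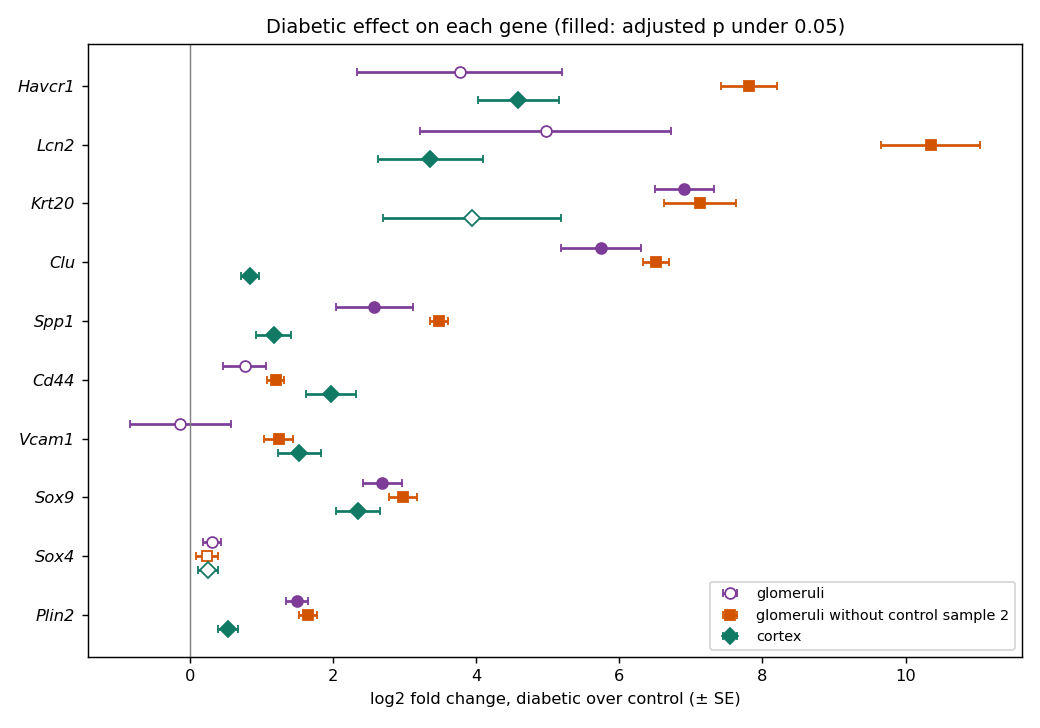
Log2 fold change, diabetic over control (± SE), of each gene in glomeruli (circles), in glomeruli without control sample 2 (squares) and in cortex (diamonds), filled where the adjusted p was under 0.05. Leaving out control sample 2 moves Havcr1 to 7.81 and Lcn2 to 10.35 and turns Vcam1 to 1.24, while Krt20 and Sox9 move little.

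Members varied together between libraries of 1 group. Control glomerular sample 2 was the highest of the 3 controls for 9 members, all but Sox4, against 35.2% of all genes. It exceeded the next control more than 3 times for Havcr1, Lcn2, Clu, Spp1 and Vcam1, which is 5 of 10 members against 2% of all genes and 6 of 35 other injury genes. Its myeloid marker sum was the highest of the controls at 728 CPM, against 408 and 290 CPM. The same held for its endothelial (1432 CPM, against 1097 and 967 CPM) and parietal marker sums (1084 CPM, against 917 and 759 CPM). Its proximal tubule sum of 121 CPM was near the others (104 and 94.4 CPM) but also the highest, as were its collecting duct and lymphocyte sums. Its podocyte sum was the lowest, and its mesangial and distal nephron sums lay between those of the other controls. In the diabetic cortex, libraries 2 and 3 were both above libraries 1 and 4 for 9 members, again all but Sox4, against 18.2% of all genes. It was so too for 18 of 35 other injury genes and 10 of 19 NF-kB response genes, so the pattern was not particular to the members. Proximal tubule markers summed to 29047 and 26490 CPM in libraries 2 and 3, and to 34635 and 30282 CPM in libraries 1 and 4. Myeloid markers summed to 309 CPM in each of libraries 2 and 3, and to 215 and 214 CPM in libraries 1 and 4. Control cortex library 4 was the highest control for 5 members (Havcr1, Lcn2, Sox4, Spp1 and Vcam1), against 32.3% of all genes, and had the lowest proximal tubule sum of the controls, 29036 CPM against 40556 to 45033 CPM. These patterns were picked after the values were seen and have no test. The part of myeloid, endothelial, parietal or proximal tubule RNA in them was not tested.

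**Figure D4:**
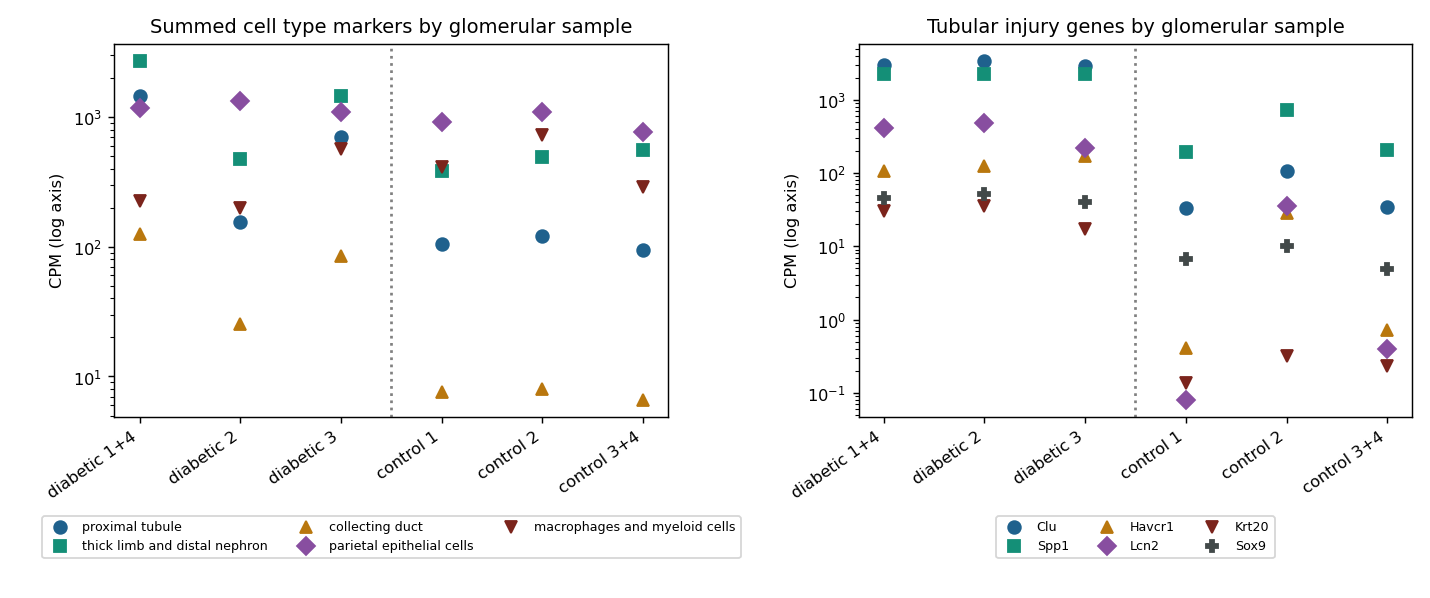
Summed CPM of cell type markers (left) and CPM of 6 injury genes (right) in each glomerular sample, on log axes. Diabetic sample 2 has 156 CPM of proximal tubule markers, near the 94.4 to 121 CPM of the controls, and the highest parietal cell marker sum (1333 CPM), Clu (3391 CPM) and Krt20 (35.6 CPM).

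Levels per length (FPKM, fragments scaled to gene length and library size) ranked the members within each group. In diabetic glomeruli Clu (1468 ± 151) and Spp1 (1442 ± 45) were the highest, followed by Lcn2 (467 ± 177) and Plin2 (139 ± 13.6), and Vcam1 was the lowest (6.35 ± 1.37; SD, n = 3). In control glomeruli Spp1 (212 ± 173) was the highest, then Sox4 (57.7 ± 7.74) and Plin2 (43.2 ± 8.33), and Clu followed in place 4 (24.2 ± 17.8; SD, n = 3). In diabetic cortex the order began with Spp1 (863 ± 328), Clu (141 ± 15.9), Plin2 (38.3 ± 8.25) and Havcr1 (16.6 ± 9.01; SD, n = 4). In control cortex it began with Spp1 (372 ± 65.8), Clu (76 ± 11.5) and Plin2 (25.6 ± 3.72), and the other 7 members were below 3 FPKM (SD, n = 4).

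Across the 4 groups all 10 members had their highest mean FPKM in diabetic glomeruli. For 9 of them diabetic glomeruli did not overlap the next group, the exception being Vcam1 (6.35 ± 1.37 FPKM in diabetic glomeruli and 6.16 ± 6.63 FPKM in control glomeruli; SD, n = 3 each). By CPM Vcam1 was highest in diabetic cortex, and Sox4 and Cd44 in diabetic glomeruli overlapped control glomeruli. By FPKM, Cd44, Sox4, Sox9, Plin2, Lcn2 and Vcam1 had control glomeruli second, and Clu, Spp1, Krt20 and Havcr1 had diabetic cortex second. For Lcn2 and Vcam1 that place rested on control glomerular sample 2, since the other controls had 0.0865 and 0.442 FPKM of Lcn2 and 2.13 and 2.53 FPKM of Vcam1, below the means of diabetic cortex (4.48 and 3.5 FPKM). By CPM Lcn2 had diabetic cortex second. By FPKM, Clu and Cd44 were the members whose 4 groups were all apart from their neighbours. Their control groups stood in opposite orders, since control glomeruli held less Clu than control cortex, 24.2 ± 17.8 FPKM against 76 ± 11.5 FPKM in control cortex, and far more Cd44, 22.9 ± 10.6 FPKM against 0.258 ± 0.0591 FPKM (SD, n = 3 and 4). The tables of the tissues were made separately, so this order across tissues has no test, and diabetic glomeruli with tubule RNA are part of it.

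**Figure D5:**
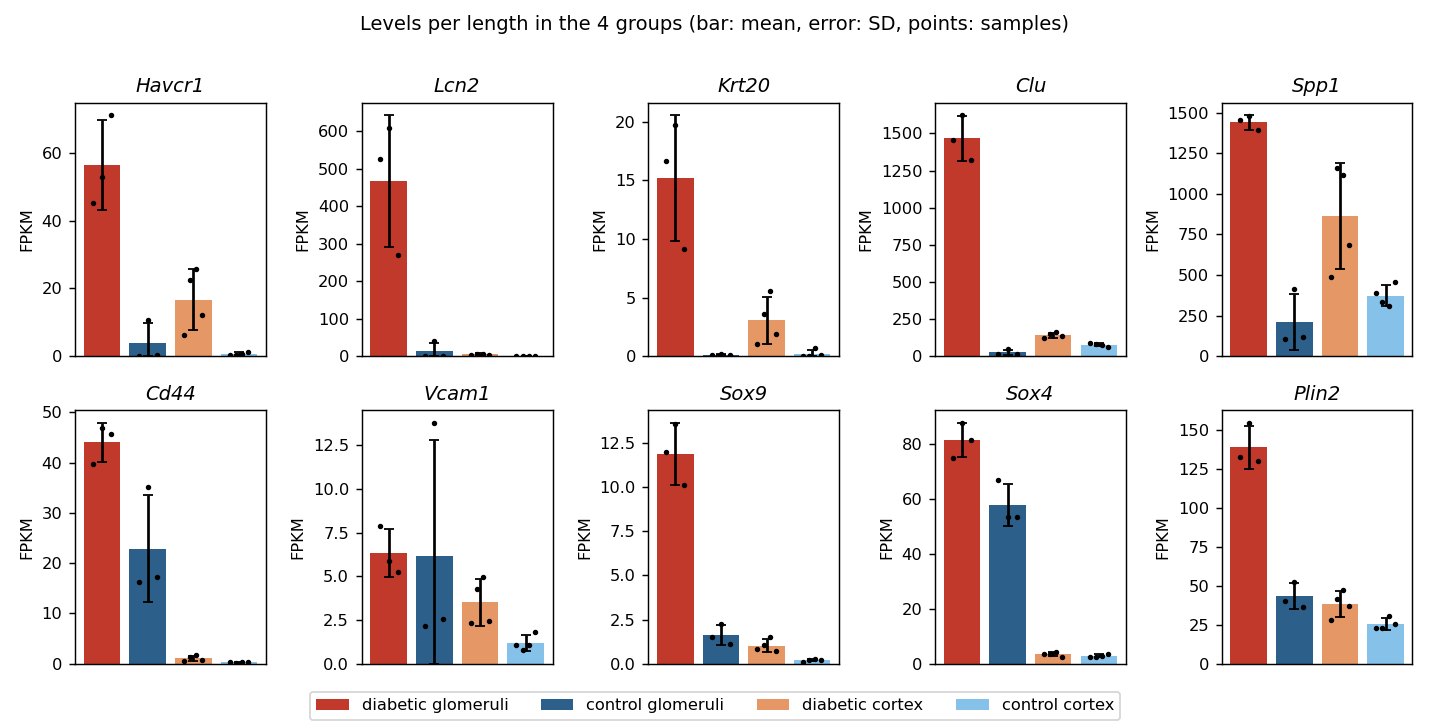
FPKM of each gene in diabetic glomeruli, control glomeruli, diabetic cortex and control cortex, with bars at the mean, error bars of 1 SD (lower ends stopped at 0) and a point for each sample. Diabetic glomeruli are the highest bar in every panel, and for Vcam1 they are level with control glomeruli (6.35 and 6.16 FPKM).

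A list of 36 other genes of tubular injury and failed repair gave a mixed picture. In glomeruli 15 of 35 tested rose and 8 fell, against 37.5% of all genes called, with a median log2 fold change of 0.03. Gdf15, a stress-induced cytokine, rose by 1.56 ± 0.14 (edgeR adjusted p = 0.000775), with 206, 236 and 174 CPM in diabetic samples, against 73.5, 74.5 and 60.5 CPM in control samples. C3, the central complement component, fell by 3.58 (SE 0.34, adjusted p = 0.000878), to 14.4 ± 4.82 CPM in diabetic samples, against 172 ± 51.7 CPM in control samples (SD, n = 3 each). In the cortex C3 rose by 2.94 ± 0.44 (adjusted p = 0.00427), and the difference between tissues was -6.51 ± 0.64 (adjusted p = 1.31e-05). Umod and Egf, products of the thick limb and distal tubule, are on this list and among the 15 genes that rose in glomeruli. Umod had 30.3 to 642 CPM in diabetic samples, against 22 to 29.3 CPM in control samples. Umod and Egf are themselves among the 12 thick limb and distal nephron markers, so their rise with that sum is not an independent observation. Pax2 and Prom1, also among the 15, are likewise among the 6 parietal cell markers. Whether the rise of these genes reflects injury was not tested.

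In the cortex 15 of 35 rose and 1, Egf, fell, against 20.1% of all genes called, with a median of 0.61. Tnfrsf12a, the receptor of the cytokine TWEAK, rose by 1.96 ± 0.11 (edgeR adjusted p = 1.26e-05), with 41.5, 33.6, 47.2 and 41.5 CPM in diabetic libraries, against 11.2, 11.1, 10.6 and 9.34 CPM in control libraries. Cdkn1a, the cell cycle inhibitor p21, rose by 3.56 ± 0.29 (adjusted p = 0.00046), with 136, 121, 146 and 157 CPM in diabetic libraries, against 7.22, 8.33, 15.2 and 16.7 CPM in control libraries. Ccn1, a secreted matrix protein, rose by 1.61 ± 0.17 (adjusted p = 0.000725). Libraries 2 and 3 both lay above libraries 1 and 4 of the diabetic cortex for 18 of the 35 genes, Tnfrsf12a and Cdkn1a not among them. The diabetic effect differed between tissues for 25 of the 36, 10 of them higher and 15 lower in glomeruli. Of all 16506 genes 35% were called for this difference, 18.8% higher and 16.2% lower. Itgb6, an epithelial integrin subunit (6.53 ± 0.59, adjusted p = 7.21e-06), and Krt7 were shifted toward glomeruli, and Tnfrsf12a (-2.19 ± 0.16, adjusted p = 8.25e-07) toward the cortex.

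The genes whose pattern was most like each member were found by the root mean square difference of log2 CPM over the 14 samples, among 10780 genes. Bspry was among the 2 genes closest to Clu (difference 0.31). Spp1 was closest to Pmaip1, a promoter of apoptosis (0.30), and Plac8 (0.34). Vcam1 was closest to Icam1 (0.30) and Cd14, a myeloid receptor of bacterial lipopolysaccharide (0.37), and Cd44 to Psd4 (0.37) and Cd14 (0.39). Plin2 was closest to Smox, spermine oxidase (0.16), and Rps6ka1, a kinase (0.16), and Sox4 to Ctnnbl1 (0.13) and H3f3b, a histone H3 gene (0.14). Sox9 was closest to Ltc4s, leukotriene C4 synthase (0.54), and Nrg1, a growth factor of the epidermal growth factor family (0.62). For Havcr1 the nearest were Gc, the vitamin D binding protein (1.72), and Ltc4s (2.17), for Lcn2 they were Krt18 (2.0) and Cldn4, a tight junction protein (2.05), and for Krt20 Sprr1a (2.48) and Ltc4s (2.65). No gene followed these 3 members, which have the widest range, to within 1 log2 unit. All samples share their libraries and depth between genes, and these differences have no test.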

How the data were processed

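Per the labels' protocols, total RNA of isolated glomeruli and renal cortex was made into SMARTER mRNA-Seq libraries. The authors deposited whole-number read counts per gene symbol (glomeruli) or Ensembl identifier (cortex) and, for each tissue, FPKM values, per the file headers. From the values, the cortex counts may be estimates made whole: 15 values above 0 had an FPKM of 0. The submitters' processing notes name GRCm38 and mm10. Which aligner and counter were used, and whether strand was, is not given in the sources used here. Symbols and positions came from GENCODE M21: 19796 glomerular symbols matched directly, 324 through synonyms and 4602 not, 31953 cortex identifiers matched and 2311 did not, and 19042 genes joined.

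Genes were tested with edgeR 4.0.16 in R 4.3.3 (filterByExpr, TMM, robust quasi-likelihood, Benjamini-Hochberg threshold 0.05), each tissue alone, and the tissue difference as an interaction over 14 samples. SDs are of CPM or FPKM. Alternatives used DESeq2 1.42.0, limma 3.58.1 on log2(FPKM + 1) and log2(FPKM + 0.1) with FPKM of at least 0.5 kept, other scalings, no filter, separate libraries, a replicate block and leaving out samples. The test was tried on simulated data.

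The members and lists were chosen with earlier results of these data known, and so was the summing of the close pairs. Genes named were the members, up to 4 called genes with the smallest adjusted p per list and comparison, and the 2 genes most like each member in pattern (mean log2 CPM of at least 1, prior count 2). A few others are named for their values. Some genes that the rule selects are not reported here. Floors of 3 counts cover counting error only, since reads are not independent molecules. Replicate numbers were not used to pair samples in the main fits. Pairing of same-numbered glomeruli and cortex was not tested.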

Additional observations from a re-analysis of the deposited data

Results flagged for a closer look

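In control cortex, 1 of the 4 libraries lay far from the others for 4 members. Library 4 held 3.08 CPM of Havcr1, the gap to the nearest control being 0.838 of the group's range, and 3.05 CPM of Lcn2, with a gap of 0.917. Library 3 held 1.41 CPM of Krt20 (gap 0.899) and 120 CPM of Plin2 (gap 0.897). Each gap is past Dixon's 95% limit for 4 samples, which chance alone passes in about 1 of 20 groups. Control library 4 also had the lowest proximal tubule marker sum of the controls, 29036 CPM.

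The diabetic effect differed between tissues for Clu, larger in glomeruli by 4.91 on the log2 scale, and for Plin2, larger in glomeruli by 0.97, both by the interaction test.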

How the results depend on the processing

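Of the counts of calls, 195 alternative values stayed within 1.5 times the reported count and 22 did not. Glomerular genes called lower numbered 1661 when scaled by library totals, 1608 by limma on FPKM with either pseudocount, and 1728 to 2516 with 1 sample left out. With diabetic sample 2 as the sole diabetic sample 1356 were higher and 937 lower, and 1779 genes had a higher effect in glomeruli than in cortex. Members called higher in glomeruli numbered 8 with DESeq2 (3383 of all 15238 genes) and 9 with either FPKM pseudocount (3605 and 3628 of 12808). They numbered 9 with separate libraries (3943 of 15182) and 5 to 9 with 1 sample left out (2076 to 2721 of all genes). Cortex genes called lower numbered 1090 to 2241 with 1 library left out. For the tissue difference, 6 members were higher with log2(FPKM + 1) (3811 of 13765 genes). With 1 sample left out 2 to 5 were higher (2439 to 3069 of all genes) and 0 to 1 lower (2229 to 2765). DESeq2 gave 2 lower members (3068 of 16506 genes).

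Same-numbered diabetic and control libraries of a tissue showed little common deviation (correlations -0.058 to 0.107 in glomeruli, -0.103 to 0.043 in cortex). Of these pairs 2 of 4 in glomeruli and 1 of 4 in cortex correlated best with their own number. The main fits therefore used no pairing, though low correlations do not exclude it. Whether same-numbered glomeruli and cortex came from the same mouse was not tested, and the interaction treats them as independent. With the replicate block 986 cortex genes were lower, and 9 members were higher (1389 of all 19228 genes). In separate glomerular libraries with the block 8 members were higher (3596 of 15182 genes).

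Directions turned for values that had not passed. Vcam1 in glomeruli was 0.05 with library totals, 0.41 and 0.55 with the FPKM pseudocounts 1 and 0.1, 0.18 with separate libraries, 0.70 with the replicate block, and -0.54 to 1.24 with 1 sample left out. The tissue difference of Havcr1 was 1.19 and 1.41 with those pseudocounts, 1.49 with the block and -1.35 to 3.20 with 1 sample left out. That of Sox4 was -0.05 to 0.20 with 1 sample left out, and that of Cd44 was 0.33 with log2(FPKM + 1). Under the same pseudocount Fosl1 (0.87) and Plin5 (-0.14) turned after passing in counts. These causes were not tested, except that a larger pseudocount shrinks low genes by construction.

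Depth limits Krt20 and Lcn2 in control samples, some with 0 to 5 counts.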
